A study of Mus musculus with 3 samples.

Results

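The immunoglobulin heavy chain locus of the mouse, Igh, was followed through all gene records of GENCODE M21 on Chromosome 12 whose symbol starts with Igh and whose type is an immunoglobulin gene type. These were 217 of 55450 gene records, namely 185 V, 20 D, 4 J and 8 constant (C) records. Their span, chr12:113254830-116010093 of mm10, was widened by 300 kb on either side, and this window held 37 of the 18945 CTCF peaks of the library. The library was a CTCF ChIP-seq of LSK cells, the Lin- Sca1+ cKit+ bone marrow fraction that holds hematopoietic stem cells and multipotent progenitors, from adult C57BL6 mice. The sort left out cells with CD4, CD8, IL7Ra, CD11b, Ly6g, CD45R or Ter119, so B-lineage cells that carry CD45R were gated away. A peak list has no transcript levels, so cell identity could not be checked against marker genes. There was 1 ChIP library and no replicate, so no difference is tested, and the intervals given are 95% intervals that cover counting error only. The input libraries of LSK cells and of megakaryocyte erythroid progenitors (MEP) were not analyzed here, and the reads behind each peak are not in the list, so the depth at a site is unknown.

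B cells assemble a heavy chain gene by joining 1 D to 1 J segment and then 1 V segment to the joined DJ, a reaction started by the RAG recombinase. RAG cuts at recombination signals, each made of a heptamer, a spacer and a nonamer, which lie directly beside the coding segment. CTCF is a zinc finger protein that binds a motif with a direction, and with cohesin it holds the ends of chromatin loops, often where motifs point toward each other. At Igh, the known CTCF sites include a group beyond the 3′ regulatory region past the constant genes, a pair between the V and D segments known as IGCR1, and many sites among the V genes. The locus lies on the minus strand, so the constant genes have the lowest coordinates, the V genes the highest, and the 3′ side of the locus is at the left of a map of the chromosome.

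Among the V genes, CTCF peaks lay over recombination signals. Of the 14 peaks in the V part, 8 covered the signal of a V gene, and in each of these the best CTCF match began 55 to 58 bases past the end of the coding segment, 15 to 17 bases past the nonamer. The matches were found with a 20-base weight matrix learned from peaks on other chromosomes, scored in log2 odds summed over its bases, and a match counts when it scores at least 15.62, which 5% of equally wide windows 10 kb from a peak reach. The 8 signals are printed because they carry this arrangement, each 5′ to 3′ on the minus strand of GRCm38 from the first base past the V segment, with the heptamer, the nonamer and the CTCF match in capitals in that order.
Ighv5-2 (chr12:113578426-113578503): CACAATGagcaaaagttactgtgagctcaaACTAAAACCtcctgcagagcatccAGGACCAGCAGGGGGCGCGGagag
Ighv2-9-1 (chr12:113769770-113769849): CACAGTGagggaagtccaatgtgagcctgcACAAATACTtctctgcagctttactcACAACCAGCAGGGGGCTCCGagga
Ighv5-17 (chr12:113859071-113859148): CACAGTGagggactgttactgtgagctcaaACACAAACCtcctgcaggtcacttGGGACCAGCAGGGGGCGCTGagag
Ighv2-9 (chr12:113879016-113879095): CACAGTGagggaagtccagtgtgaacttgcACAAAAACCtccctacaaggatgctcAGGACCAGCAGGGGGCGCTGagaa
Ighv4-1 (chr12:113948202-113948281): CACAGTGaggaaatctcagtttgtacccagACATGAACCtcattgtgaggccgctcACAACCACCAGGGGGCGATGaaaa
Ighv11-1 (chr12:113981799-113981878): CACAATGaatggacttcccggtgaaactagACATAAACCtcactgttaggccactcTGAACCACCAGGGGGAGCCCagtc
Ighv11-2 (chr12:114048161-114048240): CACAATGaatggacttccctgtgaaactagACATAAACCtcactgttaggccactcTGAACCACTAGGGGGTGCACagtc
Ighv12-3 (chr12:114366440-114366520): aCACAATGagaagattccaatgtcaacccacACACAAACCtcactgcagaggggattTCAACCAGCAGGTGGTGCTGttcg

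All 8 are of type IG_V_gene, none is a pseudogene, and the best signal had a spacer of 23 bases in each, where 22 to 24 were allowed. The heptamer was CACAGTG in 4 of them and had a mismatch to it in the other 4, where it read CACAATG. The best CTCF match lay on the same strand as the gene in 8 of 8. That of Ighv11-2, with a score of 13.39, is under the threshold and is included here. Its centre was 10 to 61 bp from the midpoint of the peak, which was 561 to 784 bases wide. The peak midpoint of Ighv5-2, the D-proximal V gene also known as VH81X, was 4 bp past the V segment, and that of Ighv2-9-1 was 89 bp past it.

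**Figure D1:**
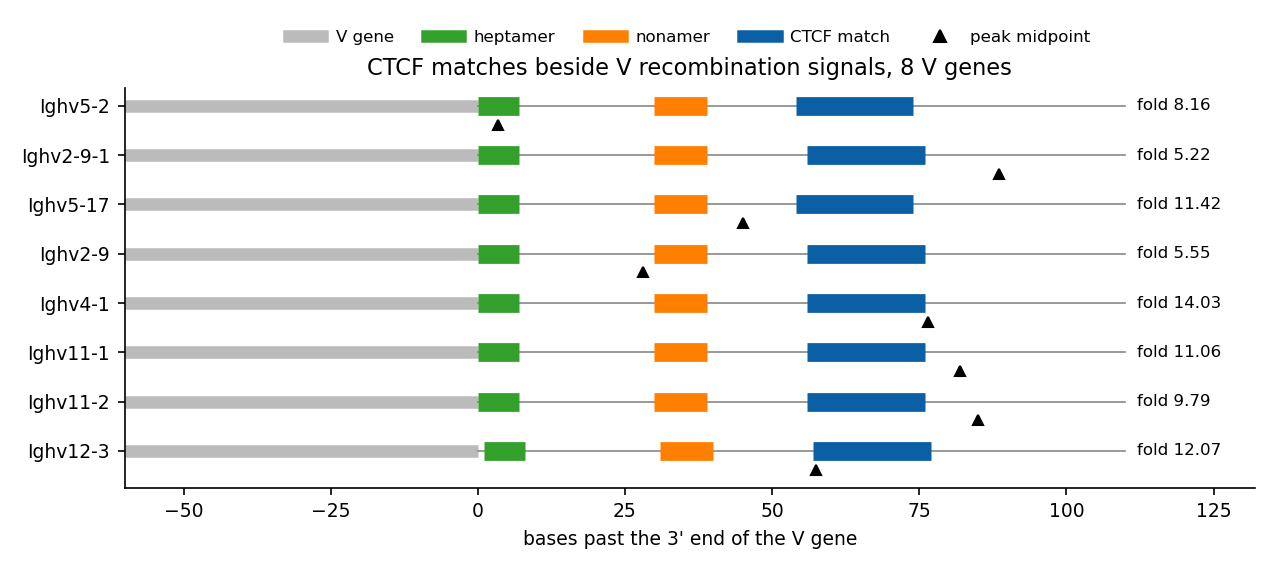
Arrangement of the recombination signal and the CTCF match at the 8 V genes with a peak there, with bases past the 3′ end of the V gene on the x axis and 1 gene per row, ordered from the D side. Grey bars are the V gene, green bars the heptamer, orange bars the nonamer, blue bars the 20-base CTCF match and triangles the peak midpoint, with the fold enrichment at the right. The blue bars begin 55 to 58 bases past the V gene in every row, while the triangles spread from 4 to 89 bases.

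By fold enrichment these 8 peaks were near the middle of the list. The −log10 p-value had a median of 10.151 over all 14 peaks of the V part and 12.617 over all peaks. In the 8 peaks it ranged from 5.144 at Ighv2-9 to 16.826 at Ighv4-1. Their fold enrichment, the authors' ratio of ChIP signal to background on a linear scale, had a median of 10.42 and ranged from 5.22 at Ighv2-9-1 to 14.03 at Ighv4-1, where the median of all 18945 peaks was 10.12. At Ighv5-2 the fold enrichment was 8.16 and the −log10 p-value 10.666. Ighv5-17 had 11.42 and 12.222, and Ighv2-9 had 5.55 and 5.144. On this scale Ighv2-9 and Ighv2-9-1 (−log10 p-value 5.207) were close to the lowest value in the list, 5.001. Ighv12-3, the last of these genes away from D, reached 12.07 with a −log10 p-value of 12.331. Of the 8 peaks, 3 belonged to the stricter set, the 9472 peaks of lowest false discovery rate, namely those of Ighv5-17, Ighv11-1 and Ighv12-3. The order by this rate was not the order by −log10 p-value. The peak of Ighv4-1, highest of the 8 by fold enrichment and −log10 p-value, was not in the stricter set.

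Ighv11-1 and Ighv11-2 are close copies. Their printed signals of 80 bases differ at 4 positions, 3 of them inside the CTCF match. The match scored 16.05 at Ighv11-1 and 13.39 at Ighv11-2, which is under the threshold. The peaks had fold enrichments of 11.06 and 9.79, and 86.4% of the 220 bases compared around the matches were equal. The peak of Ighv11-1 also held the CTCF core motif without a mismatch on the plus strand, away from the signal.

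A match beside the signal was present at more V records than had a peak. Within 100 bases of the 3′ end, 26 of 185 V records had a match over the threshold, all 26 on the strand of the gene, where 0.61% of windows of 100 bases 10 kb from peaks had one. The match of 7 of the 26 lay in a peak, and the peak of Ighv11-2 lay over the match that is under the threshold. Of all matches on Chromosome 12 outside the window, 13.2% lay in a peak. At scores of 20 or more it was 28.2% of those outside the window and 2 of 8 beside V records. At scores from 18 to 20 it was 12.8% and 2 of 10, and at scores from 15.62 to 18 it was 8.58% and 3 of 8. By type, 22 of 113 V genes and 4 of 70 V pseudogenes had a match, and none of the 4 pseudogene matches was in a peak.

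The matches were found in 9 of 16 V families. In Ighv2, 8 of 11 records had one and 2 lay in a peak, and in Ighv5 it was 9 of 22 and 2. Both records of Ighv4 had one and 1 lay in a peak. Ighv10 had 2 matches in 4 records, and Ighv8, Ighv13 and Ighv16 had 1 each, none in a peak. In Ighv1, the largest family, 0 of 93 records had a match over the threshold, and the highest score was 4.57. The other families without one were Ighv3, Ighv6, Ighv7, Ighv9, Ighv14 and Ighv15, and Ighv7 came nearest with 14.7.

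**Figure D2:**
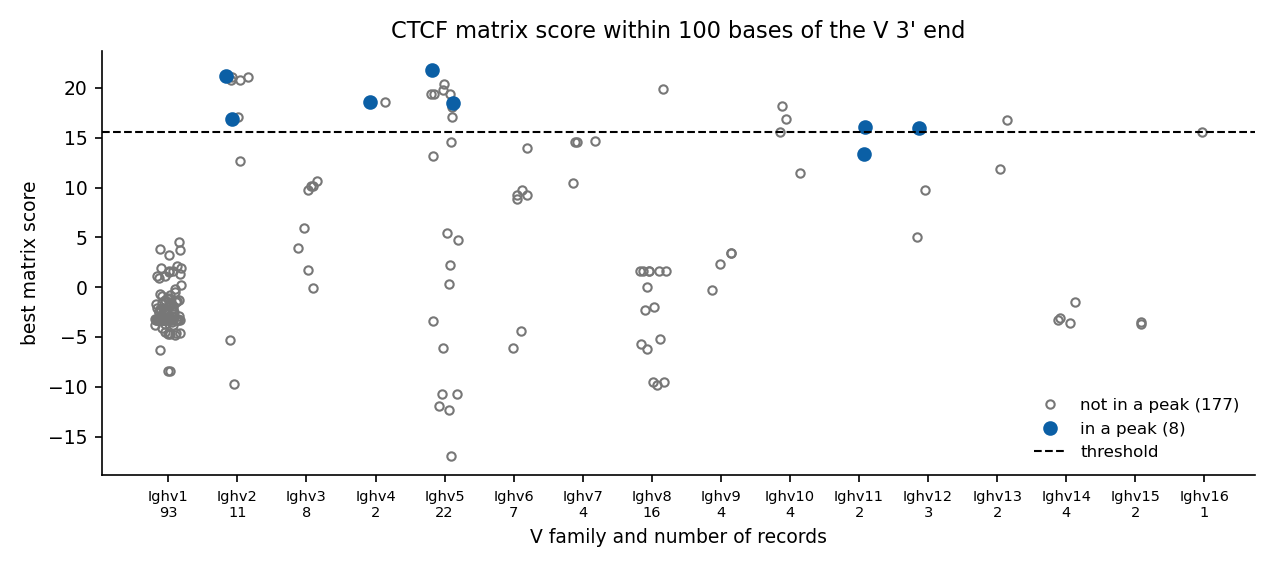
Best score of the CTCF matrix (y axis, log2 odds) within 100 bases of the 3′ end of each V record, by V family with its number of records (x axis). Filled blue points are the 8 records whose match lay in a peak, open points the other 177, and the dashed line is the threshold of 15.62. All 93 records of Ighv1 lie far below the line, at 4.57 or less, and open points stand beside filled ones over the line in Ighv2, Ighv4 and Ighv5.

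Within Ighv5 and Ighv2, the matrix score did not separate records with a peak from those without. The 4 matches in a peak scored 16.87 to 21.8 and the 13 without one 17.05 to 21.08. The signals of 3 records without a peak are shown for comparison with those above, from the highest scoring record without a peak in Ighv5 (Ighv5-15, score 20.36) and in Ighv2 (Ighv2-3, score 21.08, tied with Ighv2-6 and Ighv2-6-8 and the first of them by position) and from the pseudogene Ighv4-2.
Ighv5-15 (chr12:113826568-113826645): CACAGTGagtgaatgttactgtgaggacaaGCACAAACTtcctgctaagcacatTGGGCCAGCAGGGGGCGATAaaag
Ighv2-3 (chr12:113611104-113611186): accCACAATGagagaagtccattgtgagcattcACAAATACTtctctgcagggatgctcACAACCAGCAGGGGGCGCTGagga
Ighv4-2 (chr12:114013064-114013143): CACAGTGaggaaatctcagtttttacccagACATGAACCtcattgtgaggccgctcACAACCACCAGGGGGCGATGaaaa

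The 80 bases of Ighv4-2 differ from those of Ighv4-1 at 1 position, in the spacer, and at 0 positions of the CTCF match. Both matches scored 18.62, but a peak was listed at Ighv4-1 only, with a fold enrichment of 14.03.

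How far sequence can be told apart differed between these records, and it is given beside the counts because reads that mapped to more than 1 place were allowed. Over 700 bases around the match, the share of 32-base words that occur once in the genome was 80.57% to 95.67% for the 4 matches in a peak in Ighv5 and Ighv2, and 31.24% to 100% (median 57.7%) for the 13 without. At Ighv4-1 it was 60.09% and at Ighv4-2 60.54%. Of all 19 matches beside a signal without a peak, 9 were at 70% or more and 5 at 90% or more. The 5 were Ighv5-16 (score 17.06), Ighv16-1 (15.62), Ighv5-21 (18.04), Ighv8-1 (19.87) and Ighv13-2 (16.82), of which Ighv5-21 and Ighv8-1 are pseudogenes. The part of sequence copies in where peaks were listed was not tested.

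Beyond Ighv12-3 the peaks of the V part lay away from the signals. The stretch from the D side to Ighv12-3 holds 68 records in 0.794 Mb and 8 peaks, or 10.08 per Mb (4.35 to 19.85). The stretch beyond holds 117 records in 1.643 Mb and 6 peaks, or 3.65 per Mb (1.34 to 7.95), and the intervals overlap. The division at Ighv12-3 was placed after the peaks were seen. None of the 6 peaks lay over a recombination signal. Each was nearest to a record of Ighv1 and lay upstream of it, on the side of its promoter, at 572 to 7924 bp.

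The CTCF match of all 6 was on the minus strand. These matches are printed to show that 3 of them are the same, each 5′ to 3′ on the minus strand with 10 bases on either side in lower case, and named by the nearest record.
Ighv1-46 (chr12:114981672-114981711): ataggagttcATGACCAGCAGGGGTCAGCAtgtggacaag
Ighv1-58 (chr12:115320823-115320862): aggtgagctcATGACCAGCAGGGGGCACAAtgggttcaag
Ighv1-65 (chr12:115533300-115533339): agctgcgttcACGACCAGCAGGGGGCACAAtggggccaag
Ighv1-78 (chr12:115872643-115872682): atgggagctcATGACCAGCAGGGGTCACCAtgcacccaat
Ighv1-81 (chr12:115924190-115924229): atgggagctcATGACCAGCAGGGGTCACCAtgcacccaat
Ighv1-83 (chr12:115967705-115967744): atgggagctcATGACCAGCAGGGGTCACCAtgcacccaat

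The peaks near Ighv1-78, Ighv1-81 and Ighv1-83 held these 40 bases without a difference, and were 97.3% to 99.5% equal over 220 bases. They lay 3089, 3152 and 3067 bp upstream of their records, with fold enrichments of 10.77, 8.81 and 10.12. Only 28.5% to 34.0% of their 32-base words occur once in the genome, so the 3 listed peaks are not 3 independent measurements. The peak near Ighv1-58 had a fold enrichment of 11.75 and 42.3% unique words. Those near Ighv1-46 and Ighv1-65, with 100% and 86.8% unique words, were among the lowest in the window, at 5.22 and 6.2. Without the 4 peaks under 50% unique words, 2 peaks were left beyond Ighv12-3.

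Matches were common in this stretch, with 85 over the threshold, or 51.73 per Mb. The stretch from the D side to Ighv12-3 had 29, or 36.52 per Mb. Both counts include matches beside a signal. The whole V part had 114 matches over the threshold, 26 beside a signal and 88 elsewhere. Of the 88, 62 lay upstream of a record of Ighv1, at a median of 2589 bp, and 6 lay in a peak, or 6.82%. Over the V part, 13 of 114 matches (11.4%) were in a peak, against the 13.2% of the rest of Chromosome 12. Among the 114, the matches in a peak had a median score of 19.86 and those not in a peak 18.93. The median share of unique words around them was 80.6% and 58.7%. For the 88 away from a signal the order was reversed, with medians of 35.6% in a peak and 54.4% not in a peak.

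The strand of the match was nearly uniform. In the V part 13 of 14 peaks held a match over the threshold, and 13 of 13 best matches were on the minus strand, the strand of 183 of the 185 V records. Over peaks on other chromosomes with a match, 50.34% were on the minus strand. The same held for matches whether or not they were in a peak, since 111 of 114 (97.4%) in the V part were on the minus strand, against 49.6% on the rest of Chromosome 12. Matches were also denser, at 46.78 per Mb of the V part and 31.96 per Mb of the rest of Chromosome 12. The V records descend from copies of each other, so neither the records nor the matches are independent.

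**Figure D3:**
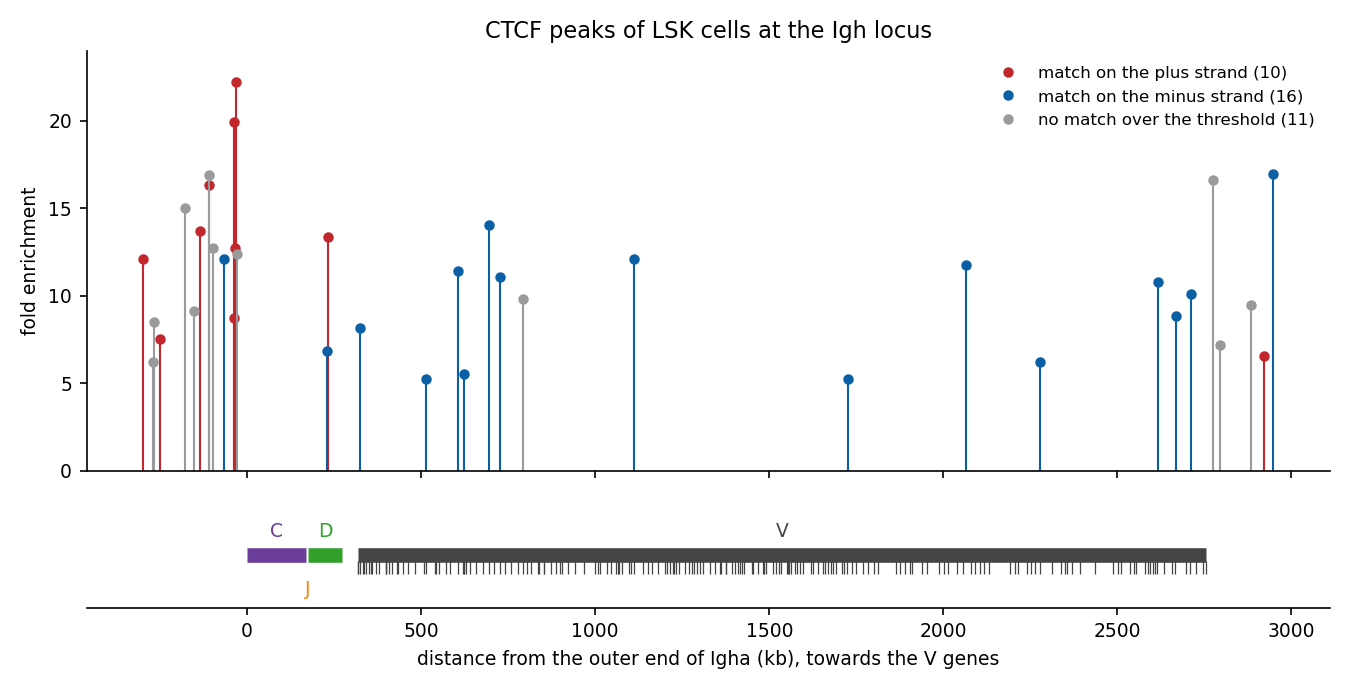
CTCF peaks across the Igh window, with the distance from the outer end of Igha in kb (x axis) and fold enrichment (y axis). Each stem is 1 peak, red where its best match over the threshold is on the plus strand (10 peaks), blue on the minus strand (16) and grey where there is none (11), and the bars below are the C, J, D and V parts with a tick for each V record. The V part is blue apart from 1 grey stem, while the tallest stems, red, stand just left of the constant genes.

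The strongest CTCF signal of the window lay past the constant genes. A cluster of 5 peaks stood within 8.87 kb at chr12:113215722-113224595, and the last of them ended 30.2 kb beyond Igha, the constant gene of IgA and the outermost of the locus. Peaks covered 6104 bases of this cluster. In order toward Igha the fold enrichments were 8.74, 19.9, 12.73, 22.19 and 12.4. The peak of 22.19, chr12:113220996-113223284, had a −log10 p-value of 94.755. It ranked 12 of 18945 by that value and 333 by fold enrichment. It is 2289 bases wide. The peak of 19.9, chr12:113217123-113218483, ranked 97 by −log10 p-value and 712 by fold enrichment. Over all 18945 peaks, 3 had 4 or more other peaks within 5 kb of the midpoint, and 1 of these was in the cluster.

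The cluster held 7 matches in 4 of its 5 peaks, and 7 of 7 were on the plus strand, opposite to the V part. They scored 15.81 to 20.56, and are printed as the sites that point toward the V genes, 5′ to 3′ on the plus strand, with the peaks numbered 1 to 5 in order toward Igha.
peak 1 (chr12:113216104-113216143): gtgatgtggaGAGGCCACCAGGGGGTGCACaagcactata
peak 2 (chr12:113217448-113217487): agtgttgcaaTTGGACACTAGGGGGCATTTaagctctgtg
peak 2 (chr12:113218072-113218111): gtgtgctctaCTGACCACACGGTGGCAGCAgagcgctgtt
peak 3 (chr12:113220039-113220078): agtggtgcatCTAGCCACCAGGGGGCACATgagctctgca
peak 4 (chr12:113221394-113221433): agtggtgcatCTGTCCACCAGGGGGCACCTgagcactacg
peak 4 (chr12:113222202-113222241): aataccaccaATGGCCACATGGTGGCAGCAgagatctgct
peak 4 (chr12:113222467-113222506): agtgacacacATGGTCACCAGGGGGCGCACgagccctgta

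The highest score, 20.56, belongs to the first match of peak 4. Peak 5 had no match over the threshold, and its best one (13.48) was on the plus strand as well. The core motif without a mismatch was in peaks 3 and 4, on the plus strand. With 1 mismatch allowed, it was on both strands in peaks 1, 3, 4 and 5 and on the plus strand only in peak 2. From 84.74% to 100% of the 32-base words of these 5 peaks occur once in the genome, a higher share than in 4 of the 6 peaks beyond Ighv12-3.

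From the cluster to the D side, 260.4 kb held no peak. This stretch contains 30 Igh records, all 8 constant and all 4 J records included. The constant part, 167.9 kb from Igha to Ighm, had 0 peaks (0 to 21.97 per Mb), and the floor of 3 counts used for a count of 0 would be 17.87 per Mb. Its sequence is 82.05% unique words, close to the 82.15% of Chromosome 12. The constant part held 2 matches over the threshold, neither in a peak. That inside Igha, on the minus strand, scored 22.07, and the other scored 16.72. The J part is 1.3 kb long and allows no statement on density. Ighm, the constant gene of IgM, was 62246 bp from the nearest peak, and Ighj1, the J segment nearest to D, 55143 bp. None of the 32 C, J and D records had a peak within 1 kb, beside 17.9% of all gene records and 3.54% of records of 250 to 1000 bp. The D and J records are shorter than 250 bp and the C records longer than 1000 bp, so neither share is matched to them in length.

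At the D side, a pair of peaks lay upstream of Ighd1-1, the D segment also known as DFL16.1, between it and Adam6b, a gene of sperm function inside the locus. The first, chr12:113484976-113485611, began 2784 bp from Ighd1-1, and its fold enrichment was 6.85 at a −log10 p-value of 6.665. The second, chr12:113487472-113488266, was 5280 bp from Ighd1-1 and 1245 bp from the TSS of Adam6b, with 13.38 and 13.74. Only the second belonged to the stricter set. Their matches, 2618 bp apart, were on opposite strands and are printed to show this, each 5′ to 3′ on its own strand.
first D peak, minus strand (chr12:113485256-113485295): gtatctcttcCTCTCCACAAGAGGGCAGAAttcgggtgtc
second D peak, plus strand (chr12:113487874-113487913): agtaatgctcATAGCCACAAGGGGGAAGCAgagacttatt

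The match nearer to D, with a score of 18.76, is on the strand of the V matches, and the one nearer to V, with a score of 18.91, is on the strand of the cluster past Igha. Read along the chromosome, each of the pair points away from the other. The D part held no other match over the threshold and no core motif without a mismatch. Beyond the pair lie Ighd3-1 and Ighd5-1, the D records at the V end, 37047 and 38534 bp from a peak, and Ighd4-1, at the J end, was 54438 bp from one. The pair counts as D because Ighd3-1 and Ighd5-1 lie beyond it, and it was not matched to published coordinates of IGCR1. The 46.1 kb between the D and V parts, which hold Adam6a, begin past Ighd5-1 and had no peak. Their lack of a peak is therefore no statement on IGCR1.

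**Figure D4:**
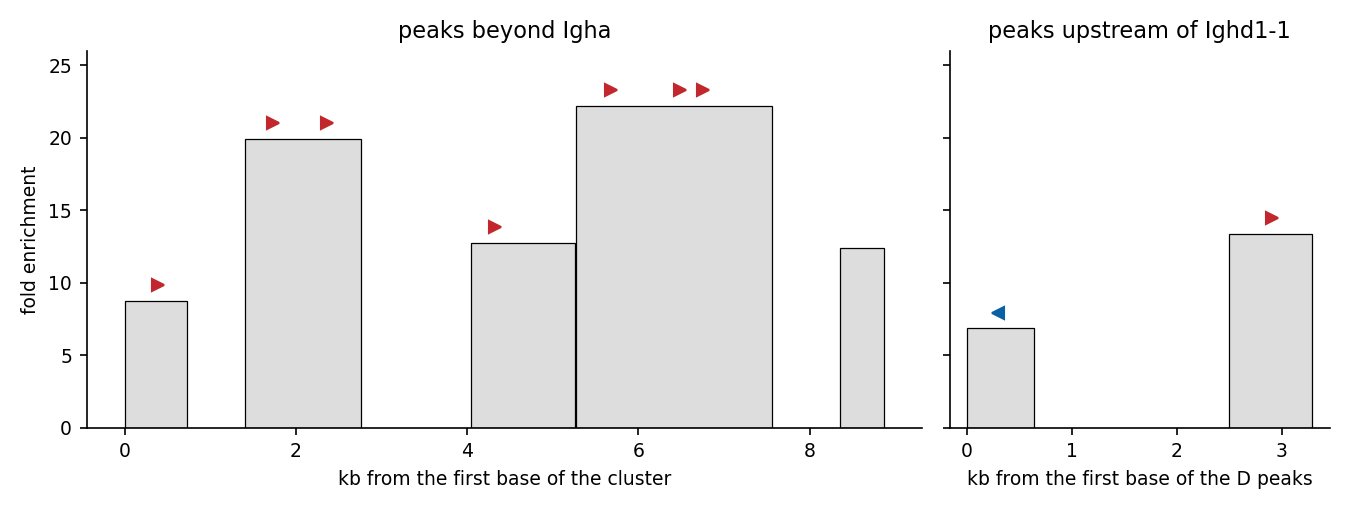
The 5 peaks beyond Igha (left) and the pair upstream of Ighd1-1 (right), with position in kb from the first base of each group (x axis) and fold enrichment on the y axis. A bar covers the width of 1 peak, and arrowheads over it are matches over the threshold, red and pointing right for the plus strand, blue and pointing left for the minus strand. The 7 arrowheads of the left panel all point right, and those of the right panel point in opposite directions.

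Seen over the whole locus, the gene span was not rich in peaks. Its 16 peaks in 2.755 Mb gave 5.81 per Mb (3.32 to 9.43), against 6.03 per Mb (5.6 to 6.49) over the rest of Chromosome 12 and 7.19 per Mb over Chromosomes 1 to 19 and X. In the stricter set of 9472 peaks, 4 of them in the span, the values were 1.45 and 2.82 per Mb. By part there were 14 peaks in V, 2 in D and none in J or C. In the window, 6 stretches of over 200 kb without a peak held 163 of the 217 records. The longest, 614.7 kb between Ighv12-3 and the peak near Ighv1-46, held 60 records. The median V record was 65.5 kb from a peak, and the farthest, Ighv1-17-1, was 305.1 kb away. Neither these stretches nor these distances were computed for other regions of similar peak density. They are therefore not shown to be particular to the locus. Unique words made up 60.11% of the V part and 52.62% of the D part, against 83.64% of the genome, and the part of this in the counts was not tested.

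Of the 185 V records, 10 had a peak within 1 kb, or 5.41%, where 17.9% of all gene records did. V records are short, and among records of 250 to 1000 bp the share was 3.54%. The 10 were the 8 genes with a peak over the signal and the pseudogenes Ighv2-8, 994 bp from the peak of Ighv2-9, and Ighv1-65, 572 bp from its peak. By family they were 3 in Ighv2, 2 each in Ighv5 and Ighv11, and 1 each in Ighv1, Ighv4 and Ighv12. At the ends of the V part, Ighv5-1 on the D side was 4782 bp from the peak of Ighv5-2, and Ighv1-86 was 17763 bp from a peak in the flank.

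The other receptor loci set these values in context. At Igk, the kappa light chain locus, 8 peaks in 3.171 Mb gave 2.52 per Mb (1.09 to 4.97), and 0 of 160 V records had a peak within 1 kb. At Tra and Trd, the T cell receptor alpha and delta locus, 74 peaks gave 41.2 per Mb (32.35 to 51.72), and 52 of 134 V records (38.81%) had one. The interval of Igh overlaps that of Igk and lies below that of Tra and Trd.

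By motif, 12 of the 37 window peaks held the CTCF core motif without a mismatch, or 32.4% (Wilson 95% interval 19.6% to 48.5%), beside 35.6% of all peaks. For the matrix it was 26 of 37, or 70.3% (54.2% to 82.5%), beside 65.6%. In the V part the shares were 8 of 14 (57.1%, 32.6% to 78.6%) and 13 of 14 (92.9%, 68.5% to 98.7%). In the 16 peaks of the 3′ flank they were 4 of 16 (10.2% to 49.5%) and 9 of 16 (56.2%, 33.2% to 76.9%). In the 5 peaks of the 5′ flank 0 held the core motif and 2 a match.

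The flanks hold other genes. The 3′ flank had 16 peaks, or 53.33 per Mb (30.48 to 86.61), and the 11 outside the cluster had fold enrichments of 6.2 to 16.89. Of its protein-coding genes, Crip1, which encodes a small LIM domain protein, had a peak over the TSS with a fold enrichment of 16.89, and Tedc1 one with 12.73. Tex22 had a peak 371 bp from the TSS (15.01) and Tmem121, the last gene before the cluster, one at 1440 bp (12.07). The peaks nearest to the TSSs of Crip2, of Mta1, a subunit of a chromatin remodeling complex, and of Brf1, a factor of RNA polymerase III, were 3972, 4043 and 4239 bp away. Those of Btbd6 and Pacs2 were 8774 and 8918 bp away. The peak with a fold enrichment of 7.5 near Brf1 was closest to the record 9230104M06Rik, and the nearest record to the cluster was Gm25622.

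The 5′ flank had 5 peaks, or 16.67 per Mb (5.41 to 38.89). The first beyond the V genes lay 17763 bp past Ighv1-86 with a fold enrichment of 16.64, above each of the 14 peaks of the V part, and had no match over the threshold. Zfp386, a zinc finger gene, had a peak 1843 bp from its TSS (7.18), and a peak with 9.46 lay in an intron of Vipr2, a receptor gene. The strongest, with 16.97, was nearest to Wdr60, and another with 6.53 was nearest to Gm23732. The TSSs of Wdr60, Gm11027 and Esyt2 were 59945, 72309 and 78119 bp from a peak.

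Genes whose products act on the locus were read from lists. Of 14 genes of the recombination reaction, 2 had their nearest peak at most 1 kb from the TSS, 6 within 10 kb and 10 within 50 kb, and of 10 regulators of the locus it was 0, 2 and 5. For both lists this is 2, 8 and 15 of 24, beside 8.59%, 29.3% and 67.7% of protein-coding genes. The highest fold enrichments within 10 kb were those of Ebf1 (16.97) and Foxo1 (16.31), transcription factors of early B cells, of Hmgb2 (15.34), a DNA-bending cofactor of RAG, and of Nhej1 (15.01), an end-joining factor, whose peak was 164 bp from the TSS. Rag1, which encodes the RAG subunit with the active site, had a peak of 7.18 at 3225 bp, and Rag2 none within 10 kb. Xrcc4, an end-joining factor, and Prkdc, the DNA-dependent protein kinase, had none within 50 kb.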

How the data were processed

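CTCF ChIP-seq of 1 LSK library was analyzed. The authors mapped reads to mm10 and called peaks on this library. According to its methods, Bowtie allowed multiply mapping reads, ChrM was removed and MACS called peaks. The submitters' processing notes give Bowtie 1.0.0, while the methods give an older version. For MACS, settings and control are not stated there. The deposited list holds the authors' fold enrichment (a ratio), −log10 p-value and false discovery rate (a q-value). The rate's scale is not stated, so it was used only to order peaks. Starts were read as 0-based and printed 1-based, with midpoints deciding parts.

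Everything else was computed on GRCm38.p6 and GENCODE M21. Signals were the best heptamer (CACAGTG), spacer of 22 to 24 bases and nonamer (ACAAAAACC) at the V 3′ end, with ties going to a spacer of 23. The weight matrix was refined in 3 rounds on peaks off Chromosome 12, and both strands were searched. Word copies were counted at every base of the window and every 5000 bases of the genome. Genes named were those nearest to a peak, those at the ends of parts, those with a TSS in a flank and up to 3 records per V family with the strongest peak within 1 kb. From the gene lists, up to 4 with the strongest peak within 10 kb and up to 2 with none within 50 kb were named. Other V records, Ighm, Ighj1, Ighd3-1, Rag1 and Rag2 were named after their values were seen. The members and lists were chosen with earlier results of these data known. Python 3.11.15, pandas 2.3.3, numpy 2.4.6, matplotlib 3.10.9 and scipy 1.17.1 were used. Motif search, distances and word counts were tested on simulated data.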

Additional observations from a re-analysis of the deposited data

How the results depend on the processing

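Of 29 alternatives, 19 left counts within 1.5 times and shares or densities within the 95% interval of the value given. In the stricter set alone, peaks in the window fell from 37 to 18, in the V part from 14 to 3, V records with a peak within 1 kb from 10 to 3, and the density of the gene span from 5.81 to 1.45 per Mb. By construction this set holds 9472 of 18945 peaks, and the rest of Chromosome 12 fell from 708 to 331. The set follows the false discovery rate and left out the V part peak of highest −log10 p-value, that of Ighv4-1. The cause of the larger fall in the V part was not tested. Without flanks the window held 16 peaks. At 5 kb, 17 V records had a peak, and at 10 kb, 24 did. With 1 mismatch allowed, 86.5% of window peaks and 83.6% of all peaks held the core motif. Of the genes of both lists, 2 had a peak at 1 kb and 15 at 50 kb. Leaving out the 4 window peaks with under 50% unique words, an alternative added after the data were seen, left 33 peaks in the window, 10 in the V part and 10 V records. The minus strand held 87.5% of the 8 V peaks with the core motif without a mismatch. It held 100% of the peaks counted under the other strand alternatives. These were 12 with 1 mismatch allowed, 3 in the stricter set and 9 without the peaks under 50% unique words. Peaks with core motifs on both strands were not counted. With 1 mismatch all 14 V peaks held the core motif, and those beyond the 12 held it on both strands. No paired analysis was possible because 1 ChIP library was analyzed, and for the same reason no replicate could be left out.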
